A study of Mus musculus with 20 samples.

Results

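The genes described here are 10 genes of the white fat cell measured in mouse quadriceps: Adipoq, Plin1, Lep, Cidec, Fabp4, Retn, Cfd, Car3, Pck1 and Acvr1c. They were taken by symbol from a table of 17415 genes, and all 10 were found and passed the filter on low values (at least 1 CPM, counts per 1000000 reads, in at least 5 libraries). The table holds 20 RNA-seq libraries in 4 groups of 5: quadriceps of mice given GDF8 Ab, a human monoclonal antibody against GDF8 (myostatin), from the limb with anterior cruciate ligament transection (ACLT) and from the control limb, and the same limbs of mice given a placebo antibody (PLA Ab). Per the study's methods, mice of both sexes, 4 to 5 months old, were dosed subcutaneously at 10 mg/kg, and muscle was taken 7 days after injury. The antibodies were given there to C57BL/6J mice and to Col1-eGFP mice, which carry a green fluorescent protein driven by the collagen 1 promoter, and the labels do not say from which of these strains the libraries came. The paper draws its quadriceps RNA-seq from the experiment in which it counted cells carrying that protein. It names C57BL/6J for a longer experiment, and does not state the strain of these libraries outright. Both antibodies were given to the whole animal, and the control limb is the other limb of an injured mouse, so it is not muscle of an uninjured animal.

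White adipocytes store triglyceride in a single large lipid droplet and release hormones such as adiponectin and leptin. Skeletal muscle holds a few of them between its bundles and at its borders, and more can form there from fibro-adipogenic progenitors, the mesenchymal cells of muscle. GDF8 belongs to the TGF-beta superfamily and limits muscle growth, and Acvr1c encodes ALK7, a receptor of the same superfamily that adipocytes carry. In bulk tissue, more fat cells in a sample and more RNA of a gene per fat cell cannot be told apart.

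The libraries were muscle: the summed level of 7 muscle identity genes lay between 77548 and 138667 CPM in all 20. Depth, read from the smallest steps between values, was 15600000 to 24200000 reads, so that 3 reads equalled 0.124 to 0.192 CPM, and every member exceeded this in every library except Acvr1c in PLA Ab control 3. Libraries of the same antibody and number were taken as the limbs of 1 mouse, which the labels do not state outright, and Y-linked expression matched in 10 of 10 such pairs. In the 6 libraries of PLA Ab mice 1 and 3 and of GDF8 Ab mouse 3, Y-linked genes averaged 30.8 to 38.4 CPM, against at most 0.403 CPM in the other 14. The summed level of 10 macrophage markers was 94.4 to 325 CPM in GDF8 Ab ACLT and 53.0 to 86.7 CPM in GDF8 Ab control libraries. With PLA Ab it was 303 to 2089 CPM in ACLT and 37.9 to 101 CPM in control libraries, with 1390 and 2089 CPM in PLA Ab ACLT 4 and 5.

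Between libraries of the same group the fat cell genes varied more than most genes, and the same libraries were high for most of them. The residual SD of log2(CPM + 1) lay between percentiles 98.7 and 99.6 of the 13502 genes tested for Adipoq, Plin1, Lep, Cidec, Retn, Cfd and Pck1. It lay at percentile 94.2 for Car3, 92.5 for Acvr1c and 86.5 for Fabp4. Against this spread, 0 of the 10 genes passed the test (limma, Benjamini-Hochberg adjusted p under 0.05) in any of the 5 comparisons. The plot of CPM by library shows the overlap of the 4 groups for each gene.

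**Figure D1:**
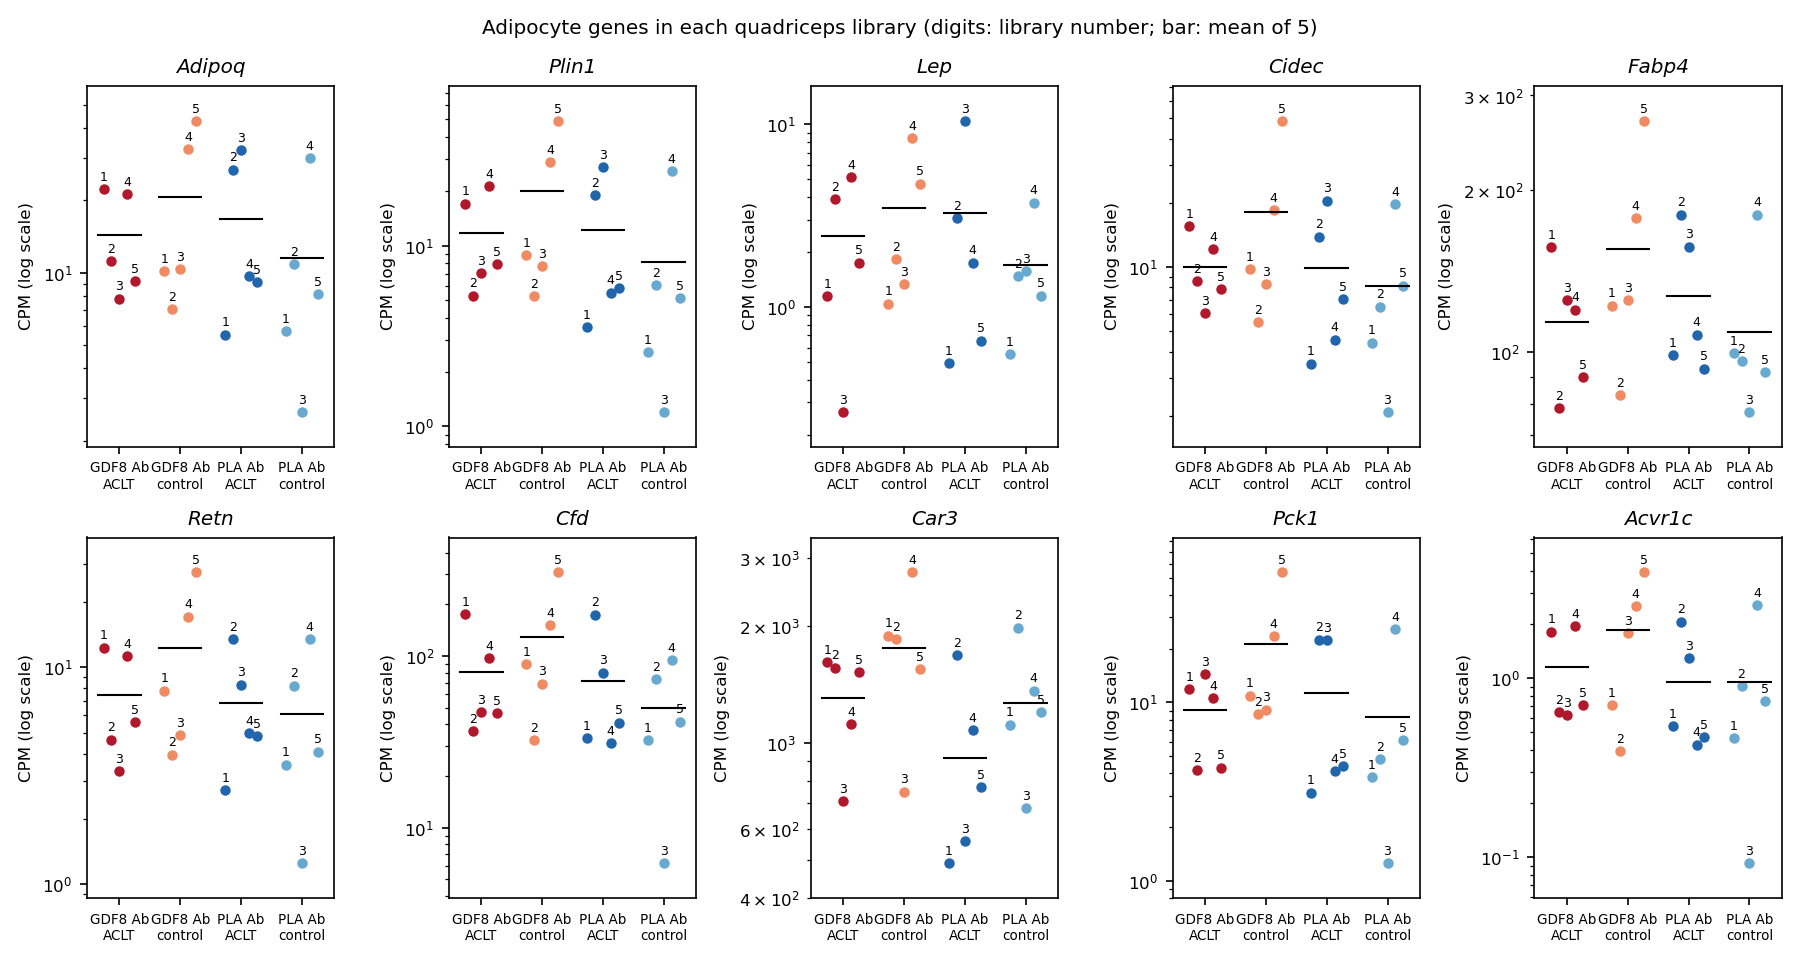
CPM of the 10 adipocyte genes on log axes in GDF8 Ab ACLT, GDF8 Ab control, PLA Ab ACLT and PLA Ab control libraries; each point is a library with its number, and the bar is the mean of 5. The groups overlap for all 10 genes, and GDF8 Ab control 5 is the highest library for 8 of them.

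Adipoq encodes adiponectin, a hormone made almost only by fat cells. Adipoq had 22.3, 11.2, 7.82, 21.3 and 9.20 CPM in GDF8 Ab ACLT libraries 1 to 5, against 10.2, 7.04, 10.4, 32.8 and 42.9 CPM in GDF8 Ab control libraries. Under PLA Ab Adipoq had 5.53, 26.9, 32.3, 9.66 and 9.12 CPM in ACLT libraries 1 to 5, against 5.71, 10.8, 2.64, 30.1 and 8.13 CPM in control libraries. Within each group 1 or 2 libraries stood above the other members of the group: GDF8 Ab ACLT 1 and 4, GDF8 Ab control 4 and 5, PLA Ab ACLT 2 and 3, and PLA Ab control 4. The group means were 14.4 ± 6.90 CPM in GDF8 Ab ACLT and 20.6 ± 16.1 CPM in GDF8 Ab control, and 16.69 ± 12.03 CPM in PLA Ab ACLT and 11.5 ± 10.8 CPM in PLA Ab control (SD, n = 5 each). The ratio of the highest to the lowest library was 16.3.

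Plin1 and Cidec encode proteins of the lipid droplet: perilipin 1 coats it and guards its triglyceride, and CIDEC (FSP27) enlarges it by fusion. Plin1 had 17.1, 5.28, 7.06, 21.3 and 7.88 CPM in GDF8 Ab ACLT libraries 1 to 5, against 8.84, 5.26, 7.69, 28.9 and 48.9 CPM in GDF8 Ab control libraries. Under PLA Ab Plin1 had 3.55, 18.9, 27.1, 5.49 and 5.80 CPM in ACLT libraries 1 to 5, against 2.58, 6.04, 1.20, 25.8 and 5.12 CPM in control libraries. These are the libraries that were high for Adipoq, and the span was wider, with the highest library at 40.7 times the lowest. Cidec had 15.6, 8.57, 6.04, 12.1 and 7.83 CPM in GDF8 Ab ACLT libraries 1 to 5, against 9.76, 5.48, 8.29, 18.5 and 48.5 CPM in GDF8 Ab control libraries. Under PLA Ab Cidec had 3.50, 13.9, 20.5, 4.55 and 7.06 CPM in ACLT libraries 1 to 5, against 4.40, 6.51, 2.08, 19.7 and 8.17 CPM in control libraries. GDF8 Ab control 5 stood far above the other 19 libraries for Cidec, the next being PLA Ab ACLT 3. Relative to Adipoq in the same library, Plin1 ran from 0.452 to 1.14 and Cidec from 0.471 to 1.13, so that these ratios spanned 2.53 and 2.40 times where Plin1 and Cidec themselves spanned 40.7 and 23.3 times.

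Retn, Cfd and Lep encode secreted products of the mouse fat cell: resistin, the complement protease adipsin (factor D), and the satiety hormone leptin. Retn had 12.3, 4.63, 3.33, 11.2 and 5.57 CPM in GDF8 Ab ACLT libraries 1 to 5, against 7.80, 3.95, 4.85, 17.1 and 27.3 CPM in GDF8 Ab control libraries. Under PLA Ab Retn had 2.71, 13.5, 8.32, 4.97 and 4.82 CPM in ACLT libraries 1 to 5, against 3.55, 8.22, 1.25, 13.5 and 4.08 CPM in control libraries. Retn, as Adipoq, was highest in GDF8 Ab control 5 and lowest in PLA Ab control 3. Cfd had 175, 36.5, 47.3, 97.4 and 46.4 CPM in GDF8 Ab ACLT libraries 1 to 5, against 89.97, 32.4, 69.1, 151 and 307 CPM in GDF8 Ab control libraries. Under PLA Ab Cfd had 33.2, 175, 80.0, 31.1 and 40.9 CPM in ACLT libraries 1 to 5, against 32.3, 73.1, 6.20, 94.5 and 41.4 CPM in control libraries. The Cfd values of GDF8 Ab ACLT 1 and PLA Ab ACLT 2 were nearly equal and second only to GDF8 Ab control 5, and the span over all libraries was 49.5 times. Lep had 1.14, 3.89, 0.266, 5.13 and 1.75 CPM in GDF8 Ab ACLT libraries 1 to 5, against 1.04, 1.83, 1.33, 8.42 and 4.74 CPM in GDF8 Ab control libraries. Under PLA Ab Lep had 0.493, 3.06, 10.4, 1.75 and 0.655 CPM in ACLT libraries 1 to 5, against 0.55, 1.47, 1.57, 3.72 and 1.16 CPM in control libraries. Leptin departed from the pattern: its highest library was PLA Ab ACLT 3 and its lowest GDF8 Ab ACLT 3, and its ratio to Adipoq spanned 17.5 times, from 0.0341 to 0.596. The lowest Lep values lie near the level of a few reads.

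Pck1 encodes the cytosolic PEP carboxykinase, which in fat cells makes glycerol 3-phosphate for triglyceride synthesis. Pck1 had 11.8, 4.15, 14.3, 10.5 and 4.29 CPM in GDF8 Ab ACLT libraries 1 to 5, against 10.9, 8.61, 9.11, 23.6 and 53.6 CPM in GDF8 Ab control libraries. Under PLA Ab Pck1 had 3.11, 22.5, 22.4, 4.12 and 4.39 CPM in ACLT libraries 1 to 5, against 3.81, 4.80, 1.25, 25.7 and 6.15 CPM in control libraries. GDF8 Ab control 5 was again highest, and GDF8 Ab ACLT 3, the lowest of its group for Retn and Lep, was the highest Pck1 library of its group. Acvr1c encodes ALK7, a type I receptor for activin B and GDF3 that restrains lipolysis in adipocytes. Acvr1c had 1.82, 0.649, 0.622, 1.96 and 0.708 CPM in GDF8 Ab ACLT libraries 1 to 5, against 0.709, 0.391, 1.79, 2.52 and 3.91 CPM in GDF8 Ab control libraries. Under PLA Ab Acvr1c had 0.543, 2.07, 1.29, 0.426 and 0.468 CPM in ACLT libraries 1 to 5, against 0.465, 0.903, 0.0925, 2.57 and 0.743 CPM in control libraries. It was at or above 1 CPM in 8 of the 20 libraries, and its 3 highest were GDF8 Ab control 5, PLA Ab control 4 and GDF8 Ab control 4.

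Fabp4 and Car3 are abundant in fat cells but are not restricted to them. Fabp4, a fatty acid binding protein, is also made by capillary endothelium and macrophages. Fabp4 had 156, 78.5, 125, 119.9 and 89.7 CPM in GDF8 Ab ACLT libraries 1 to 5, against 122, 83.2, 125, 177 and 269 CPM in GDF8 Ab control libraries. Under PLA Ab Fabp4 had 98.7, 180.1, 157, 108 and 93.1 CPM in ACLT libraries 1 to 5, against 99.4, 96.0, 77.4, 180.2 and 91.8 CPM in control libraries. Its highest library was 3.48 times its lowest, the narrowest span of the 10 genes. Car3 encodes carbonic anhydrase 3, which is also a major protein of slow muscle fibres. Car3 had 1614, 1565, 709, 1121 and 1522 CPM in GDF8 Ab ACLT libraries 1 to 5, against 1889.8, 1854, 749.8, 2751 and 1549 CPM in GDF8 Ab control libraries. Under PLA Ab Car3 had 490, 1686, 559, 1078 and 770.3 CPM in ACLT libraries 1 to 5, against 1116, 1984, 679, 1365 and 1199 CPM in control libraries. Its highest library was 5.61 times its lowest, and its order departed from that of Adipoq: PLA Ab ACLT 3, among the highest for Adipoq, was the next to lowest for Car3.

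**Figure D2:**
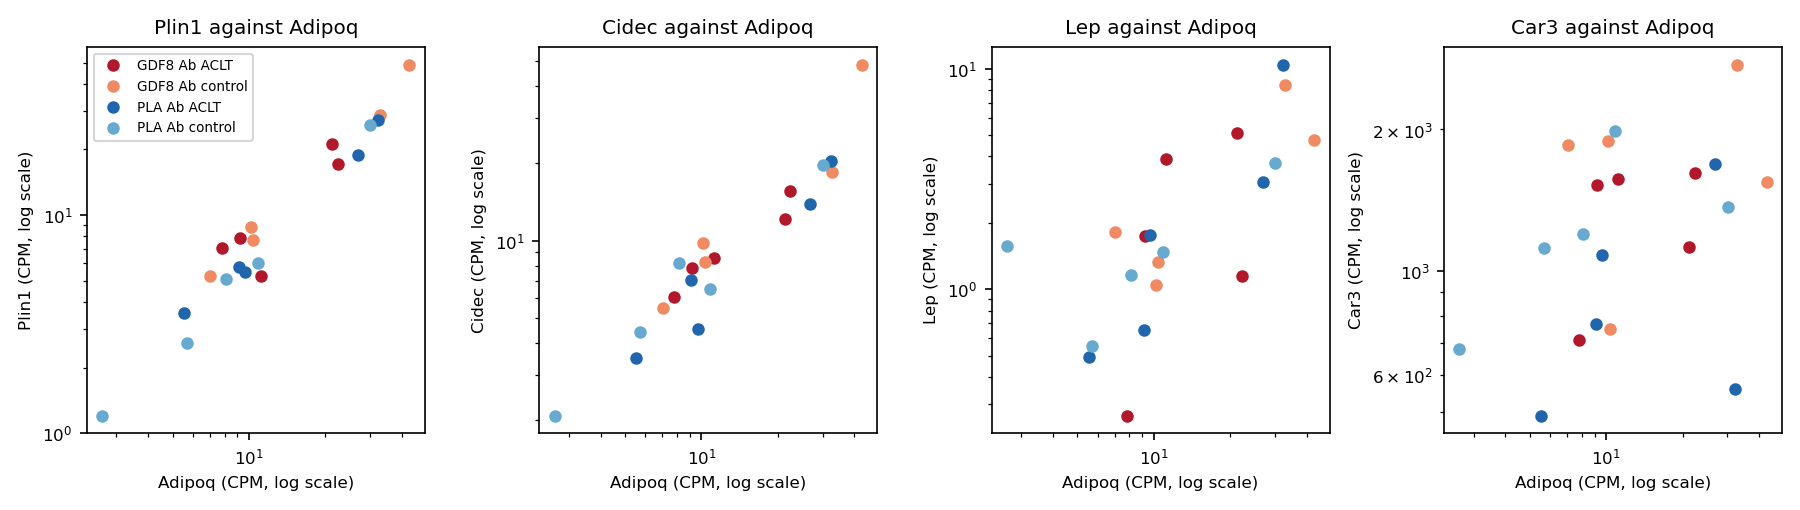
CPM of Plin1, Cidec, Lep and Car3 against CPM of Adipoq in the same library, both axes on log scales, each point a library in the color of its group. Plin1 and Cidec lie close to a line, while Lep and Car3 scatter widely.

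Taking the libraries as a whole, 7 of the 20 carried most of the high values. PLA Ab ACLT 2 and GDF8 Ab control 4 were among the 7 highest libraries for 10 of 10 genes, and GDF8 Ab control 5, PLA Ab control 4 and GDF8 Ab ACLT 1 for 9. PLA Ab ACLT 3 and GDF8 Ab ACLT 4 were among them for 7. PLA Ab control 3 was the lowest library for 8 of the 10 genes. These 7 libraries came from all 4 groups, and none of the 6 libraries with Y-linked expression was among them other than PLA Ab ACLT 3. Across the 20 libraries, which share 10 mice, the Pearson r of each gene with the mean standardized level of the other fat-restricted genes (Adipoq, Plin1, Lep, Cidec and Retn) was 0.98 for Adipoq, 0.97 for Plin1, 0.94 for Cidec and 0.91 for Retn. It was 0.91 for Acvr1c, 0.88 for Pck1, 0.87 for Cfd, 0.85 for Fabp4, 0.70 for Lep and 0.42 for Car3. These r are descriptions with no test.

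**Figure D3:**
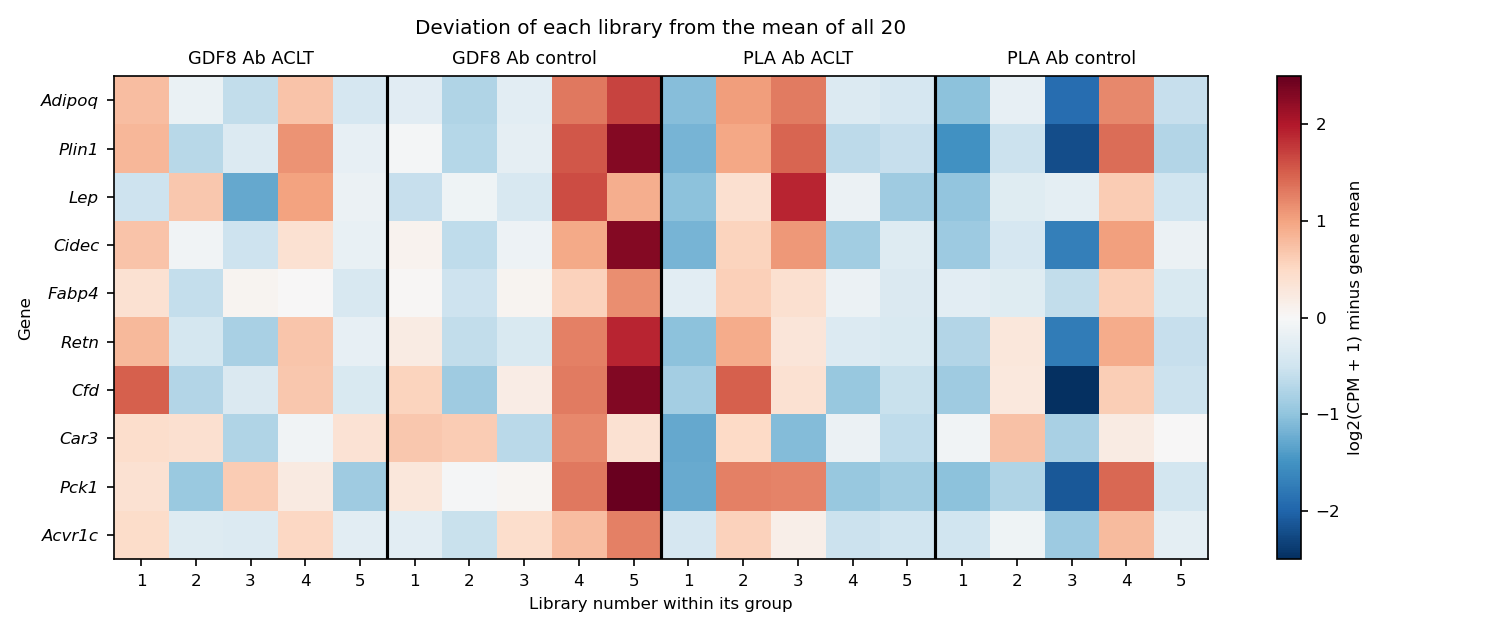
Deviation of log2(CPM + 1) from the mean of all 20 libraries for the 10 genes (rows) in each library (columns, grouped as GDF8 Ab ACLT, GDF8 Ab control, PLA Ab ACLT and PLA Ab control), red above and blue below the mean. Columns are mostly of 1 color, with Lep and Car3 departing in some libraries.

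The 250 bases upstream of the RefSeq start are shown for Adipoq and Plin1, which were closest to the shared pattern, and for Lep, which departed from it. They are from RefSeq on GRCm38.p6, 5′ to 3′ on the gene's strand, and capitals mark CCAAT or its reverse complement. They lie at chr16:23146286-23146535 on the plus strand (Adipoq), chr7:79732777-79733026 on the minus strand (Plin1) and chr6:29059971-29060220 on the plus strand (Lep).
Adipoq: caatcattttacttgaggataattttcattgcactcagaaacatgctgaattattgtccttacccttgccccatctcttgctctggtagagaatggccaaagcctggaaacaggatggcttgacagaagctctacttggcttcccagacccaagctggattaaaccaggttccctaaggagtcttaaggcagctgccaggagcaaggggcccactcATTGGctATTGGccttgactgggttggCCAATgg
Plin1: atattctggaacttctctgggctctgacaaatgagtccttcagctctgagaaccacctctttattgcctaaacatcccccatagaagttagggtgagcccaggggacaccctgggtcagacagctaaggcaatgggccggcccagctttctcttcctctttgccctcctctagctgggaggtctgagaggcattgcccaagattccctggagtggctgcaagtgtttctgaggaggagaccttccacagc
Lep: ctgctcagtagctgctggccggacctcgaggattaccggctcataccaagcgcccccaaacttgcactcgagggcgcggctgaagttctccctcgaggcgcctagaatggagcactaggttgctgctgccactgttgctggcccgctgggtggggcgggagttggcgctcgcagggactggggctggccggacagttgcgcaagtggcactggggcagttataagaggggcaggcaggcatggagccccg
RefSeq promoters were at hand for 8 of the 10 genes, 10 promoters in all, the others being Fabp4 and Car3. CCAAT was found on either strand in 1 of the 8 genes, Adipoq, which holds it 3 times between 34 and 3 bases before the start, against 33.8% of 32851 promoters of the same length. TATAAA, the half-site AGGTCA and its direct repeat spaced by 1 base (DR1) were found in 0 of the 8, against 12.4%, 14.02% and 0.0335% of all promoters, both strands read. By the coordinates in the deposited table, whose build is not settled, the 10 genes lie on chromosomes 2 (Pck1 and Acvr1c), 3 (Car3 and Fabp4), 6 (Lep and Cidec), 7 (Plin1), 8 (Retn), 10 (Cfd) and 16 (Adipoq).

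Injury under PLA Ab was compared first, ACLT against control limb. In this comparison 29.5% of all genes tested passed, 3786 higher and 201 lower (2509 higher and 2146 lower under median-of-ratios scaling), and 0 of the 10 fat cell genes did, whether higher (28% of all genes) or lower (1.49%), with 0 of 10 also at an unadjusted p under 0.05, against 41.3% of all genes. Their differences ran from -0.54 to 0.73 on the log2 scale with a median of 0.31, beside a median of 0.19 over all genes. With 1 library left out that median ran from 0.068 (without PLA Ab control 3) to 0.62 (without PLA Ab control 4), and with array weights it was 0.98. Plin1 averaged 12.2 ± 10.4 CPM in PLA Ab ACLT and 8.14 ± 10.05 CPM in PLA Ab control (SD, n = 5 each), a log2 difference of 0.73 with a 95% interval of -0.67 to 2.12 and an adjusted p of 0.431. Adipoq differed by 0.60 (SE 0.57, limma adjusted p = 0.448). Without PLA Ab control 3 these differences were 0.35 for Plin1 and 0.25 for Adipoq, and without PLA Ab control 4 they were 1.25 and 1.02. The fold between the groups that the interval allows for Adipoq runs from 0.663 to 3.46, and 1, no difference, lies within it. Car3 was the only member with a negative difference, -0.54 (SE 0.36, limma adjusted p = 0.274), and -0.35 without PLA Ab ACLT 1. Under median-of-ratios scaling, which brought the median of all genes to -0.04, Fabp4 and Acvr1c were also negative, at -0.03 and -0.04.

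With array weights, an estimate of how reliable each library is, 3 of the 10 passed in this comparison, as did 42.6% of all genes under the same weights. They were Adipoq (1.38, adjusted p = 0.0446), Cfd (1.87, adjusted p = 0.0249) and Pck1 (1.53, adjusted p = 0.0426), by limma. These weights ran from 0.14 for PLA Ab ACLT 5 to 4.43 for PLA Ab ACLT 2, which was among the 7 highest libraries for all 10 genes, and 4 of the 5 PLA Ab ACLT libraries had weights of 0.414 or less. A fit without weights and without PLA Ab ACLT 4 and 5, which held the most macrophage RNA, was chosen after seeing the data. In it 0 of the 10 passed, as with all libraries unweighted, and 1028 genes passed in all. The median difference of the 10 was 0.65 in that fit, against 0.31 with all libraries unweighted.

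The same comparison under GDF8 Ab gave 3 genes called of 13502 (0.0222%), and 0 of the 10 fat cell genes, with 0 of 10 at an unadjusted p under 0.05, against 2.56% of all genes. All 10 had negative differences, from -0.93 for Pck1 to -0.28 for Adipoq, with a median of -0.40 beside 0.05 over all genes. Without GDF8 Ab control 5, 4, 3 or 2 that median was -0.13, -0.24, -0.62 and -0.65. Pck1 averaged 9.03 ± 4.59 CPM in GDF8 Ab ACLT and 21.2 ± 19.2 CPM in GDF8 Ab control (SD, n = 5 each), with a 95% interval of -2.27 to 0.41, and a difference of -0.51 without GDF8 Ab control 5. The direction of Adipoq and Plin1 rests on GDF8 Ab control 5: without that library their differences were 0.05 and 0.0014.

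In the ACLT limb, GDF8 Ab was compared with PLA Ab. Here 18.3% of all genes passed, 99 higher and 2375 lower (613 higher and 1181 lower under median-of-ratios scaling, and 38 in all without PLA Ab ACLT 4), and 0 of the 10 fat cell genes did, again with 0 of 10 at an unadjusted p under 0.05, against 38.0% of all genes. Their differences ran from -0.15 for Fabp4 to 0.60 for Car3, with a median of 0.13 beside -0.20 over all genes. The sign of this median turned without PLA Ab ACLT 1 (-0.14), PLA Ab ACLT 4 (-0.0032), GDF8 Ab ACLT 1 (-0.058) or GDF8 Ab ACLT 4 (-0.071). It also turned without both PLA Ab ACLT 4 and 5 (-0.24), with the Y-linked covariate (-0.054) and with array weights (-0.68). Adipoq averaged 14.4 ± 6.90 CPM in GDF8 Ab ACLT and 16.69 ± 12.03 CPM in PLA Ab ACLT (SD, n = 5 each), a difference of -0.04 with a 95% interval of -1.23 to 1.15, and of 0.18 under median-of-ratios scaling. Car3 averaged 1306 ± 387 CPM in GDF8 Ab ACLT and 917 ± 487 CPM in PLA Ab ACLT (limma adjusted p = 0.224).

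In the control limb, all 10 genes were higher on average with GDF8 Ab than with PLA Ab, and 0 of them passed, as did 0 of all 13502 genes (0%, limma). At an unadjusted p under 0.05 there were 2 of the 10, Cfd and Pck1, and 801 genes in all, which is 5.93%. With array weights 15 genes passed in all (0.111%) and again 0 of the 10. The median of the 10 was 0.84, beside -0.04 over all genes, and ran from 0.50 (without GDF8 Ab control 5) to 1.22 (without PLA Ab control 4) with 1 library left out. Cfd averaged 130 ± 108 CPM in GDF8 Ab control and 49.5 ± 34.7 CPM in PLA Ab control (SD, n = 5 each), a difference of 1.42 (SE 0.67, 95% interval 0.02 to 2.83, limma adjusted p = 0.834). Pck1 averaged 21.2 ± 19.2 CPM in GDF8 Ab control and 8.33 ± 9.85 CPM in PLA Ab control, a difference of 1.40 (SE 0.64, 95% interval 0.06 to 2.74, limma adjusted p = 0.805). Both groups overlapped for every gene, and 1 or 2 of the 5 GDF8 Ab control libraries exceeded all PLA Ab control libraries.

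The control limb difference depended on single libraries. Without GDF8 Ab control 5 the difference of Pck1 was 0.99 and that of Cfd 1.02. Without PLA Ab control 3, the lowest library, they were 1.02 and 0.83. Both values stayed positive with every library left out. PLA Ab control 3 came from a mouse with Y-linked expression, as did PLA Ab control 1, against only GDF8 Ab control 3 in the other group. With Y-linked expression as a covariate all 10 differences were still positive, the smallest being 0.23, and 0 of the 10 were at an unadjusted p under 0.05. In that fit Cfd differed by 1.23 (SE 0.64, limma adjusted p = 0.609) and Pck1 by 1.31 (SE 0.65, limma adjusted p = 0.589).

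**Figure D4:**
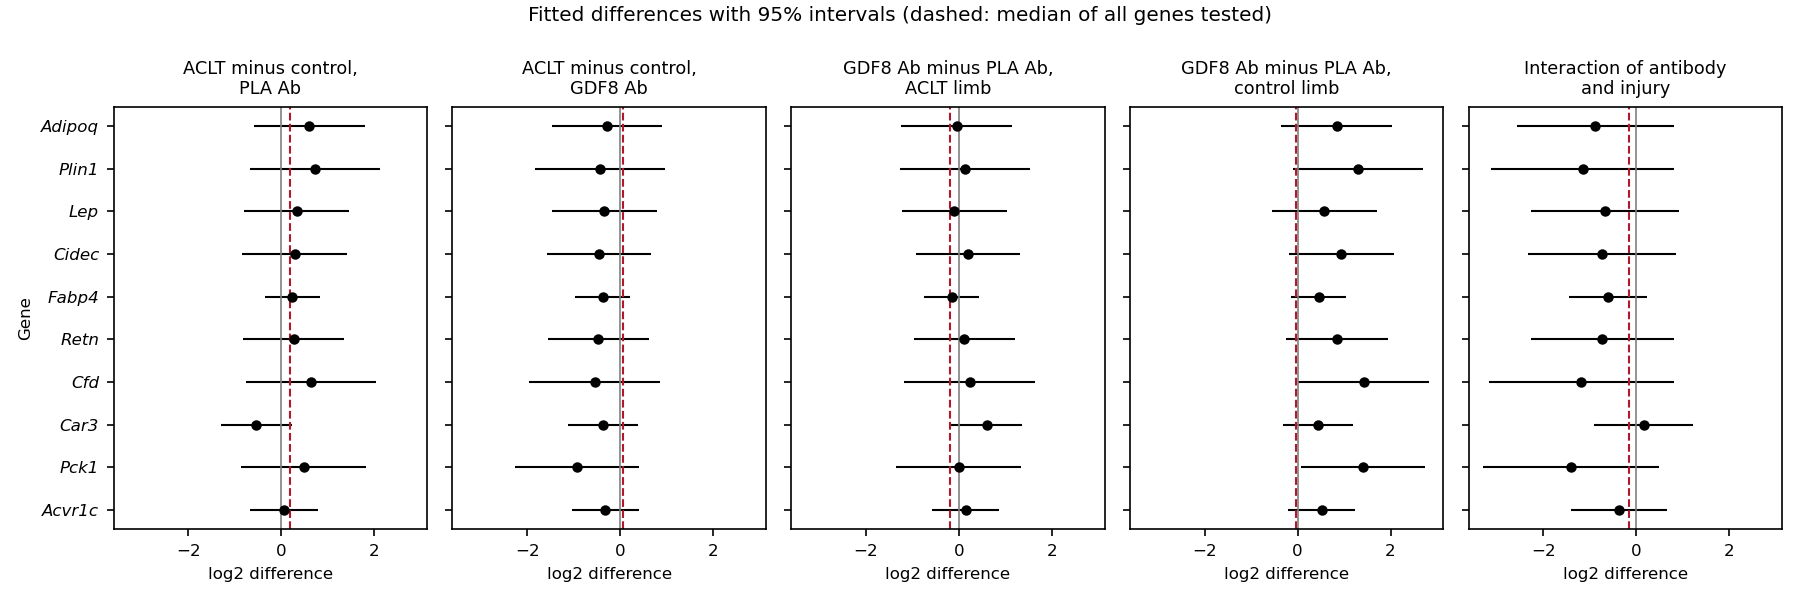
Fitted log2 differences of the 10 genes (points) with 95% intervals (lines) in the 4 comparisons and their interaction; the dashed line is the median of all 13502 genes tested. Intervals of Cfd and Pck1 lie above 0 in the control limb comparison, and none passed the test after adjustment.

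The interaction asks whether injury changed the genes differently under GDF8 Ab and PLA Ab. Of all genes tested 0 passed (0%, limma), with 2164 at an unadjusted p under 0.05. With array weights 2409 passed, and without PLA Ab ACLT 1 the count was 1076. Of the 10 fat cell genes 0 passed, and 0 were at an unadjusted p under 0.05, against 16.03% of all genes. All but Car3 (0.16) had negative values, down to -1.41 for Pck1, with a median of -0.74 beside -0.15 over all genes. Their median was -0.45 without GDF8 Ab control 5 and -1.56 with array weights. With these weights 3 passed, against 17.8% of all genes, Cfd (-2.62, adjusted p = 0.0424), Fabp4 (-1.14, adjusted p = 0.0400) and Pck1 (-2.66, adjusted p = 0.0259), by limma, with the same library weights as above.

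The limbs of a single mouse were often unlike. Adipoq in PLA Ab mouse 3 was 32.3 CPM in the ACLT limb and 2.64 CPM in the control limb, while in PLA Ab mouse 4 it was 9.66 CPM in the ACLT limb and 30.1 CPM in the control limb. In GDF8 Ab mouse 5 it was 9.20 CPM in the ACLT limb and 42.9 CPM in the control limb, and in GDF8 Ab mouse 4 both limbs were high, at 21.3 and 32.8 CPM. The ACLT limb had more Adipoq than the control limb in 2 of 5 GDF8 Ab mice and 3 of 5 PLA Ab mice. For Car3 the ACLT limb was lower in 5 of 5 mice under GDF8 Ab and in 5 of 5 under PLA Ab, by 0.0248 to 1.29 on the log2 scale. Taking the mouse as a block did not bring Car3 past the test, with an adjusted p of 0.165 under PLA Ab and 0.995 under GDF8 Ab (limma). The members that were called with array weights were not called in this fit either.

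**Figure D5:**
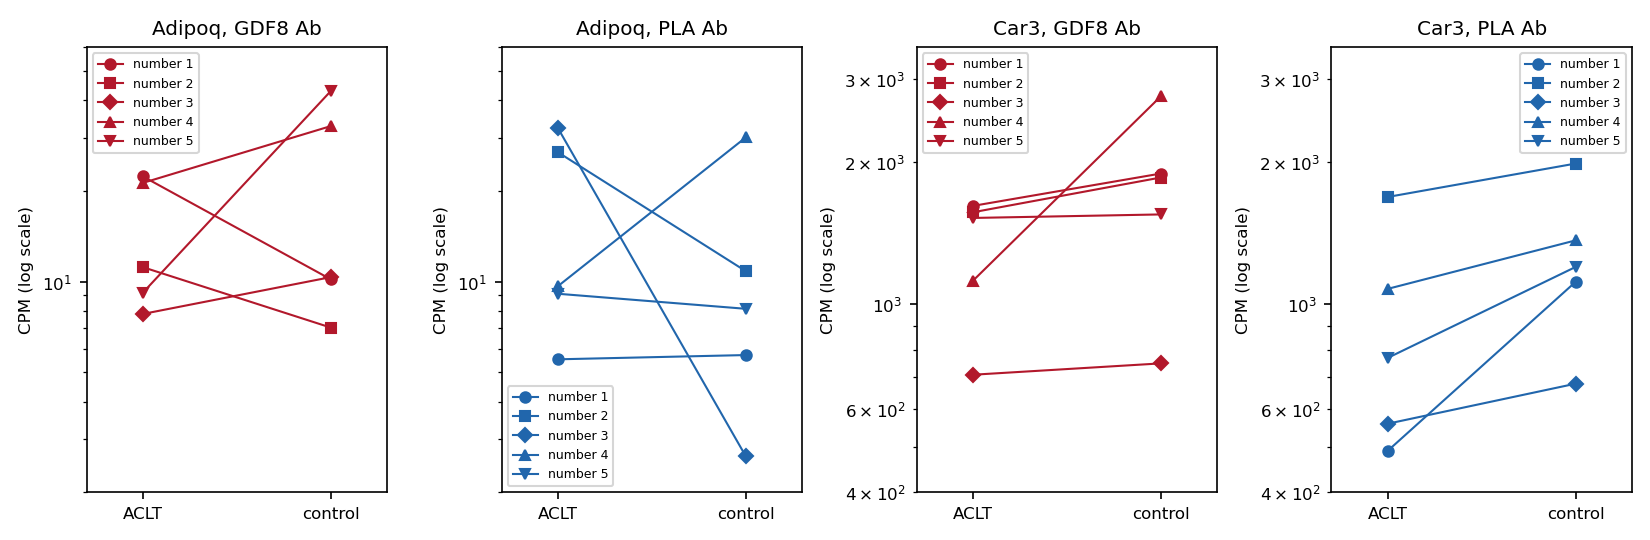
CPM of Adipoq and Car3 on log axes in the ACLT limb (left) and the control limb (right) of the same mouse, joined by a line, under GDF8 Ab and PLA Ab; each marker is a library number. The Adipoq lines cross, and all 10 Car3 lines are lower in the ACLT limb.

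Car3 was the only member whose level differed with Y-linked expression beyond the adjusted threshold. It lay at 490 to 1116 CPM in the 6 libraries with Y-linked expression and at 770.3 to 2751 CPM in the other 14, of which 12 exceeded all 6. In a fit with the mouse as a block and the 4 group means, chosen after seeing the data, Car3 was 1.04 lower on the log2 scale with Y-linked expression (SE 0.17, 95% interval -1.40 to -0.68, limma adjusted p = 0.00112). In that fit 7.57% of all genes passed. The 6 libraries come from 3 mice and the 14 from 7. The fit counted libraries and used a single correlation between limbs for all genes. Its SE, interval and p for Car3 may therefore be too small for a contrast between mice. Retn, 0.98 lower (SE 0.37), had an adjusted p of 0.102, and the other 8 had adjusted p-values of 0.218 to 0.730. With Y-linked expression as a covariate the Car3 difference between ACLT and control limbs under PLA Ab had an adjusted p of 0.0544 (limma).

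Of 15 other white fat cell genes in the table, all tested, 1 rose with ACLT under PLA Ab, where 28% of all genes tested did, and 0 passed in the other 4 comparisons. It was Cebpa, a transcription factor of the fat cell that myeloid cells also express. Cebpa had 7.94, 24.9, 20.4, 29.9 and 42.6 CPM in PLA Ab ACLT libraries 1 to 5, against 4.69, 7.37, 3.79, 16.1 and 5.90 CPM in PLA Ab control libraries, a difference of 1.59 (SE 0.45, limma adjusted p = 0.0131). Its highest libraries under PLA Ab, PLA Ab ACLT 4 and 5, had low Adipoq (9.66 and 9.12 CPM) and the most macrophage RNA. Without both the Cebpa difference was 1.15 (limma adjusted p = 0.183). Cebpa was also high, at 32.1 CPM, in GDF8 Ab control 5, which had the most Adipoq (42.9 CPM) and 86.7 CPM of macrophage markers. The source of the Cebpa RNA was not tested. The Cebpa call with ACLT under PLA Ab held with any single library left out. Pparg, the master regulator of fat cell formation, had 1.97 to 4.73 CPM in PLA Ab ACLT and 1.06 to 4.11 CPM in PLA Ab control and did not pass (limma adjusted p = 0.140). Plin4, which is on this list and is also expressed in muscle fibres, had 144 to 269 CPM in PLA Ab ACLT and 192 to 366 CPM in PLA Ab control.

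Of the 10 fibro-adipogenic progenitor markers, 7 rose with ACLT under PLA Ab (Cd34, Dpt, Lum, Ly6a, Pdgfra, Pi16 and Tcf7l2) and 0 fell, beside the 28% of all genes tested that rose. Pdgfra, their receptor for platelet-derived growth factor, had 21.2, 39.2, 24.7, 69.0 and 78.9 CPM in PLA Ab ACLT libraries, against 17.2, 31.5, 11.4, 19.6 and 25.1 CPM in PLA Ab control libraries (difference 1.01, SE 0.32, limma adjusted p = 0.0240). The groups overlapped, and the same PLA Ab ACLT 4 and 5 were highest. The count rested on single libraries: it was 5 of 10 under median-of-ratios scaling, 4 of 10 without PLA Ab ACLT 4, PLA Ab ACLT 5 or PLA Ab control 3, and 1 of 10 without both PLA Ab ACLT 4 and 5, in which fit Pdgfra differed by 0.45 (limma adjusted p = 0.400). In GDF8 Ab ACLT against PLA Ab ACLT, Tcf7l2 alone of these markers was lower, by 0.61 on the log2 scale (SE 0.17, limma adjusted p = 0.0296). All 10 macrophage markers rose with ACLT under PLA Ab, and 9 did so without PLA Ab ACLT 4 and 5. All 10 were lower in GDF8 Ab ACLT than in PLA Ab ACLT, where 17.6% of all genes were, a count that was 2 without PLA Ab ACLT 4 and 5, 2 without PLA Ab ACLT 4 alone, 5 without PLA Ab ACLT 5, and 2 and 4 without GDF8 Ab ACLT 4 and 5.

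Of 9 preadipocyte and adipogenic regulators, 3 rose with ACLT under PLA Ab: Ebf1 (0.87), Ebf2 (0.64) and Klf4 (0.99), a share near the 28% of all genes. Their limma adjusted p-values were 0.00767, 0.0307 and 0.0149, and were 0.140, 0.422 and 0.182 without PLA Ab ACLT 4 and 5. Klf15 was higher in GDF8 Ab ACLT than in PLA Ab ACLT (0.65, SE 0.21, limma adjusted p = 0.0430), where 0.733% of all genes tested were higher. Klf15 lost its call with any of 10 single libraries left out, with a limma adjusted p of up to 0.119. Of the 16 genes of fatty acid and triglyceride handling, 2 rose and 1 fell with ACLT under PLA Ab, where 28% of all genes rose and 1.49% fell. Plin2, a lipid droplet coat protein of many cell types, rose by 1.01 (SE 0.21, limma adjusted p = 0.00244) and did so also without PLA Ab ACLT 4 and 5 (0.61, limma adjusted p = 0.0139). It was 0.76 lower in GDF8 Ab ACLT than in PLA Ab ACLT (SE 0.21, limma adjusted p = 0.0275), where 17.6% of all genes tested were lower. This Plin2 difference did not pass without PLA Ab ACLT 4 and 5 (limma adjusted p = 0.363). Acly, which makes cytosolic acetyl-CoA for fatty acid synthesis, rose by 1.04 and Me1, the malic enzyme that supplies NADPH, fell by 0.31, and neither passed without PLA Ab ACLT 4 and 5 (adjusted p = 0.378 and 0.209, limma). The highest library for Fasn, the fatty acid synthase, was GDF8 Ab control 5, at 442 CPM, which was also the highest for 8 of the 10 fat cell genes.

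Cells other than adipocytes that could carry Fabp4 or Car3 were read the same way. The summed level of 8 endothelial markers was 149 to 220.0 CPM in GDF8 Ab ACLT and 164 to 255 CPM in GDF8 Ab control, and 198 to 269 CPM in PLA Ab ACLT and 160 to 262 CPM in PLA Ab control. Of the 8, 0 were called in any comparison. Over all genes tested 29.5% were called with ACLT under PLA Ab and 18.3% in GDF8 Ab ACLT against PLA Ab ACLT. Library by library, the endothelial sum was highest in PLA Ab ACLT 2 (269 CPM), PLA Ab control 4 (262 CPM) and GDF8 Ab control 5 (255 CPM). The same libraries were the highest for Fabp4, at 180.1, 180.2 and 269 CPM. The next sum, 245 CPM in GDF8 Ab control 3, went with 125 CPM of Fabp4. The part of endothelial RNA in the Fabp4 values was not tested. The summed level of 8 slow and oxidative fibre genes was 1281 to 8445 CPM in GDF8 Ab ACLT and 1473 to 6654 CPM in GDF8 Ab control, and 712 to 6290 CPM in PLA Ab ACLT and 1939 to 8559 CPM in PLA Ab control. Of these 8, 1 fell with ACLT under PLA Ab, where 1.49% of all genes tested did. It was Myl2, by 3.12 on the log2 scale (SE 1.16, limma adjusted p = 0.0497). Car3 averaged 0.54 lower in that comparison without passing, and the part of slow fibre genes in the Car3 values was not tested. Skin epidermis markers, of which 2 were in the table, summed to at most 2.94 CPM in any library.

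Among brown fat genes, Ucp1, the uncoupling protein that defines brown and beige fat, reached 2.98 CPM in GDF8 Ab control 5 and 1.73 CPM in GDF8 Ab ACLT 3 and was at or below 0.348 CPM in the other 18 libraries. Cidea was 3.66 and 3.11 CPM in these 2 libraries, its highest values. Of the 5 brown fat genes tested, 1 rose with ACLT under PLA Ab, where 28% of all genes tested did. It was Dio2, the type 2 deiodinase, by 0.98 (SE 0.35, limma adjusted p = 0.0430). Of ALK7's ligands, Gdf3 was listed at 0 in all control libraries of both antibodies and lay between 0.197 and 7.15 CPM in PLA Ab ACLT, and at most 0.260 CPM in GDF8 Ab ACLT, and it did not pass the filter. Inhbb, which encodes the subunit of activin B, rose with ACLT under PLA Ab by 0.61 on the log2 scale (SE 0.23, limma adjusted p = 0.0481), and lost its call with any of 14 single libraries left out, with an adjusted p of up to 0.139. For 12 genes of ALK7's ligands, partner receptors and SMADs that were tested, it was the only call in the 5 comparisons. With ACLT under PLA Ab 28% of all genes tested rose. Of the 4 receptors for adiponectin and leptin, Adipor2 fell with ACLT under PLA Ab by 0.18 (SE 0.06, limma adjusted p = 0.0374), by 0.45 under median-of-ratios scaling, and with an adjusted p of 0.135 without PLA Ab ACLT 4 and 5. The other 3 did not pass, and 1.49% of all genes tested fell with ACLT under PLA Ab. Calls were also lost without PLA Ab ACLT 4 and 5 for Tcf7l2 in GDF8 Ab ACLT against PLA Ab ACLT (limma adjusted p = 0.414) and, with ACLT under PLA Ab, for Myl2 (0.266), Dio2 (0.448) and Inhbb (0.250). Under median-of-ratios scaling the calls of Acly (limma adjusted p = 0.0689), Ebf2 (0.0737), Inhbb (0.120) and Dio2 (0.0633) with ACLT under PLA Ab were lost, with their directions unchanged. With 1 library left out, the calls of Pdgfra, Acly, Ebf2, Me1 and Adipor2 with ACLT under PLA Ab were each lost for 4 to 7 libraries, those of Dio2 and Myl2 for 11 and 13, and those of Plin2 and Tcf7l2 in GDF8 Ab ACLT against PLA Ab ACLT for 4 and 5. PLA Ab ACLT 4 and PLA Ab ACLT 5 were among these libraries for each of the 9 calls. Pparg, Fasn, Ucp1, Cidea and Gdf3 were named after their values were seen.

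The 10 genes outside the set whose levels most resembled the mean of the 5 fat-restricted genes were Adrb3, Cdo1, Slc7a10, Trarg1, Slc36a2, Tshr, A530016L24Rik, Ankef1, Lipe and Tmem45b, with Pearson r from 0.88 to 0.93 over 20 libraries, which share 10 mice, as a description with no test. Adrb3, the beta-3 adrenergic receptor of fat cells, ran from 0.0925 to 10.9 CPM and was highest in GDF8 Ab control 5. Trarg1 and Slc7a10 are also known from white fat cells, and Lipe encodes hormone-sensitive lipase, which is also active in muscle. GDF8 Ab control 5 was the highest library for 8 of these 10 genes. They were chosen for their likeness to the fat-restricted genes, so this count is no separate result.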

How the data were processed

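RNA was measured in 20 quadriceps libraries. Per the labels and the study's methods, the authors aligned reads with STAR 2.7.3a in Partek and named DESeq2, and deposited normalized counts: CPM, since each library sums to 1000000. The builds mm10 and mm39 are both named with no role, and the coordinates of the deposited table were used only for chromosomes. Values of low genes fell on steps of 1 read in part only (72.7% to 78.7% of values under 3 CPM within 0.02 of a whole read), so no count model was run. The step size gave depths of 15600000 to 24200000 reads, which cover counting error only.

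The 13502 genes that reached 1 CPM in 5 or more of the 20 libraries were fitted as log2(CPM + 1) with limma 3.58.1 in R 4.3.3 (trend, 4 group means, 5 comparisons), and a gene was called where its p after Benjamini-Hochberg adjustment was under 0.05. Differences are on that scale, which understates changes of low genes. The code was tested on simulated data. Tables and plots were made with Python 3.11.15, pandas 2.3.3, numpy 2.4.6, scipy 1.17.1 and matplotlib 3.10.9.

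The members and all gene lists were chosen with earlier results of these data known. Named genes were the 10 members, list genes that passed the test with at most 4 others per list by mean CPM, and the 10 other genes with the highest Pearson r with the mean of the fat-restricted members. Duplicate gene names numbered 16 and concerned no member.

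Same-numbered limbs were taken as the limbs of 1 mouse, from the study's design of injured and contralateral limbs. The fit reported holds the 4 group means without the mouse, so its p-values and intervals do not use the pairing. The pairing entered only the fits with the mouse as a block. Of 10 pairs 8 had deviations from the group means correlated above 0.1 (range 0.0347 to 0.517), the best partner of 13 of the 20 libraries was the one with its own number, Y-linked expression matched in 10 of 10 pairs, and the block correlation was 0.225. Alternatives were another pseudocount (0.1), filters (none, 10 CPM), median-of-ratios scaling, array weights, the replicate block, Y-linked expression as a covariate, only the groups compared and each replicate left out. Leaving out PLA Ab ACLT 4 and 5 together and the blocked fit with a Y-linked term were added after seeing the data.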

Additional observations from a re-analysis of the deposited data

Results flagged for a closer look

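Of 40 sets of 5 libraries (10 genes in 4 groups), 4 had 1 library that stood apart from the other 4 by more than the critical value of Dixon's test for 5. Chance gives about 1 in 20 sets, or about 2 here, only for independent sets of normally distributed values. These sets held CPM without logs, and the 10 genes share libraries and mostly rise together, so the 4 sets cannot be weighed against that figure. Of the 4 sets, 3 concerned PLA Ab control 4. Plin1 was 25.8 CPM there, against 1.20 to 6.04 CPM in the other PLA Ab control libraries (gap over range 0.803). Fabp4 was 180.2 CPM, against 77.4 to 99.4 CPM (0.786), and Pck1 25.7 CPM, against 1.25 to 6.15 CPM (0.799). The other was Lep in PLA Ab ACLT 3, at 10.4 CPM, against 0.493 to 3.06 CPM in the other PLA Ab ACLT libraries (0.742). GDF8 Ab control 5, the highest library for 8 of the 10 genes, was not among them.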

How the results depend on the processing

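The count of fat cell genes called was 0 of 10 in each of the 5 comparisons with any single replicate left out, without a filter, with 10 CPM (which leaves out Lep and Acvr1c), with a pseudocount of 0.1, under median-of-ratios scaling, with Y-linked expression as a covariate and with only the groups compared. It was 3 with array weights for PLA Ab ACLT against control and 3 for the interaction, whose values the report gives. The replicate block, which pairs the limbs of a mouse, changed no member's call, and gave 5104, 4, 2351, 0 and 0 genes called in the 5 comparisons, against 3987, 3, 2474, 0 and 0 without it. With the added 2-library exclusion, 0 of 10 were called. How many of the 10 had a residual SD above percentile 90 was 8 to 10 with a replicate left out, against 9. By Spearman correlation 6 of the 10 most similar genes were shared.

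All-gene counts moved more. In PLA Ab ACLT against PLA Ab control (3987) they were 1603 at a 10 CPM filter, 732 with only the groups compared, 1028 without PLA Ab ACLT 4 and 5, and 2289 to 5692 with a replicate left out, the lowest being 2289 without PLA Ab ACLT 4 and 2334 without PLA Ab ACLT 5. In GDF8 Ab ACLT against GDF8 Ab control (3) they were 21 with array weights, 13 without PLA Ab ACLT 4 and 5, and 0 to 5 with a replicate left out (0 without GDF8 Ab control 1, 2 or 3). In GDF8 Ab ACLT against PLA Ab ACLT (2474) they were 532 at a 10 CPM filter, 4531 with the Y-linked covariate, 5093 with array weights, 69 without PLA Ab ACLT 4 and 5, 0 with only the groups compared (limma, 3345 at an unadjusted p under 0.05), and 38 to 5320 with a replicate left out: 38 and 386 without PLA Ab ACLT 4 and 5, 98 and 263 without GDF8 Ab ACLT 4 and 5, 1218 and 1016 without GDF8 Ab ACLT 1 and 2, and 5320 and 4456 without PLA Ab ACLT 1 and 3. In GDF8 Ab control against PLA Ab control (0) they were 15 with array weights and 0 with any replicate left out, and for the interaction (0) 2409 with array weights and 0 to 1076 with a replicate left out, the highest without PLA Ab ACLT 1. Causes were not tested. The interaction has no separate value for only the groups compared.

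Of the 50 member differences, none called in the fit reported, these changed sign. For PLA Ab ACLT against PLA Ab control they were Fabp4 (-0.032) and Acvr1c (-0.038) under scaling and Car3 (0.27) with array weights. For GDF8 Ab ACLT against PLA Ab ACLT they were Adipoq (0.18), Lep (0.036), Fabp4 (0.086) and Pck1 (0.20) under scaling, Pck1 (0.029) at the pseudocount of 0.1, and Plin1 (-0.027) and Retn (-0.080) with the Y-linked covariate. With array weights they were Plin1 (-0.71), Cidec (-0.40), Retn (-0.73), Cfd (-1.11), Car3 (-0.12) and Acvr1c (-0.45), and without PLA Ab ACLT 4 and 5 Plin1 (-0.28), Cidec (-0.10), Retn (-0.055), Cfd (-0.20) and Acvr1c (-0.10). For the interaction Car3 was -0.76 with array weights. With a replicate left out, signs changed within these ranges: in PLA Ab ACLT against PLA Ab control Lep -0.13 to 0.60, Cidec -0.033 to 0.65, Retn -0.081 to 0.59 and Acvr1c -0.13 to 0.30, in GDF8 Ab ACLT against GDF8 Ab control Adipoq -0.56 to 0.055 and Plin1 -0.75 to 0.0014, in GDF8 Ab ACLT against PLA Ab ACLT Adipoq -0.33 to 0.26, Plin1 -0.16 to 0.50, Lep -0.37 to 0.36, Cidec -0.054 to 0.51, Retn -0.11 to 0.38, Cfd -0.10 to 0.64 and Pck1 -0.29 to 0.34, and for the interaction Car3 -0.12 to 0.42. The 10 control limb differences kept their sign under every alternative run. The number of libraries, 5 a group, limited the precision most for Cfd, Plin1 and Pck1, whose residual SDs were the largest of the 10 (1.17, 1.16 and 1.11 on the log2 scale).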
